A study of Homo sapiens with 35 samples.

Results

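The data described here are a comparison of RPMI-8226 myeloma cells 8 days after a pulse of carfilzomib with the same cells on day 0. Its members are 10 of the 35 RNA-seq libraries of the series, 5 labelled Day 8 and 5 labelled Day 0, and the 17999 protein-coding transcript entries (1 per gene symbol) with at least 1 count in any library. RPMI-8226 is an established multiple myeloma line, and the transcription factor MAF was expressed in all of these libraries. Every library comes from RPMI-8226 cells without a genetic modification, and carfilzomib is a covalent inhibitor of the proteasome. The pulse was 750 nM for 1 h. The labels list the same treatment for all libraries, the day 0 ones included, whereas the methods of the study place the day 0 collection before the drug was added, so day 0 is taken here as untreated. The methods of the study describe subcultures split from 1 expanded culture, whereas its figure legends call the RNA-seq data independent experiments. Depending on which holds, the p-values below measure the spread between sister subcultures or between experiments, in either case of 1 line. No untreated culture kept for 8 days is among the samples, and the effect of the pulse and of the time in culture, medium changes included, cannot be told apart. The methods place the day 8 collection right before a medium change. On day 0 the cells were given fresh medium before the drug, and whether their RNA was taken before or after that is not clear. The part of this timing in the results was not tested. In such bulk libraries fewer cells of a type and less RNA per cell cannot be told apart either.

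Proteasome inhibition blocks the disposal of ubiquitinated proteins, and myeloma cells, which make and secrete large amounts of immunoglobulin, depend on that route together with the folding machinery of the endoplasmic reticulum. The integrated stress response runs through kinases that phosphorylate eIF2-alpha and through the transcription factor ATF4, and it raises genes for amino acid synthesis, uptake and tRNA charging. The unfolded protein response raises chaperones and folding enzymes of the endoplasmic reticulum.

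The 10 libraries held between 6519392 and 10230383 estimated counts, of which 78.1 to 82.7% fell on protein-coding entries, and none of them stood apart from its own day. Expression is given as counts per 1000000 protein-coding counts (CPM), scaled by the TMM factors of edgeR (0.929 to 1.017 in these libraries). All 11 plasma cell and MAF-program markers were above 10 CPM in all 10 libraries. MAF itself went from 1752 ± 44.8 to 2159 ± 130.4 CPM (SD, n = 5 each, day 0 to day 8; log2 fold change 0.30, adjusted p = 5.74e-07). Of 35 markers of other cell types, 29 had counts; 18 of these had means under 1 CPM on both days, and 5 were at 0 in all 10 libraries, CD3D, COL3A1, VWF, HBB and ELANE. Their summed level was 477 to 562 CPM on day 0 and 575 to 675 CPM on day 8, most of it from CD68, KRT18, EPCAM and KRT8, and 7 of the 29 were higher and 1 lower on day 8; their part in the results below was not tested.

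On day 8, 1472 of the 17999 transcripts (8.18%) differed from day 0 by more than 2-fold at an adjusted p of at most 0.05 (edgeR's quasi-likelihood test fitted over all 35 libraries, Benjamini-Hochberg adjustment over all transcripts tested). Of these, 648 (3.6%) were higher and 824 (4.58%) lower, and 167 of the higher and 312 of the lower ones were changed more than 4-fold. Without the fold cutoff, 3282 (18.2%) were higher and 3342 (18.6%) lower, and the words higher, lower, rose and fell are used below for this test alone. Values with ± are the mean and SD of 5 libraries, day 0 first. Where values of all 10 libraries are listed (replicates 1 to 5 of each day in order), the 2 days did not overlap unless this is stated. The median log2 fold change of all transcripts was -0.01. Groups that did not overlap were common, with all 5 day 8 libraries above all 5 day 0 libraries for 12.4% of transcripts and below them for 12.9%. Among the transcripts past both cutoffs, 34 of the higher ones had no count on day 0 and 90 of the lower ones had none on day 8, so their fitted folds depend on the prior count and are not quoted.

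Across 37 gene lists, the list for mitosis had the highest median log2 fold change (1.12) and that for the integrated stress response the lowest (-1.36). Cholesterol synthesis, glycolysis, hypoxia and nuclear-encoded respiratory chain genes were mostly higher. Immediate-early genes, growth arrest genes, interferon-stimulated genes, NF-kappaB targets, amino acid transporters and chaperones of the endoplasmic reticulum were mostly lower. Genes of the 19S proteasome particle and of ribosomal proteins had medians near that of all transcripts, and those of the 20S proteasome core a somewhat higher one (0.16). List counts are to be read beside the 18.2% higher and 18.6% lower of all transcripts. That reference includes many transcripts of few counts, as edgeR's filterByExpr keeps 12301 of the 17999. In most lists nearly all members had means of at least 1 CPM, and the shares among expressed transcripts alone were not computed.

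**Figure D1:**
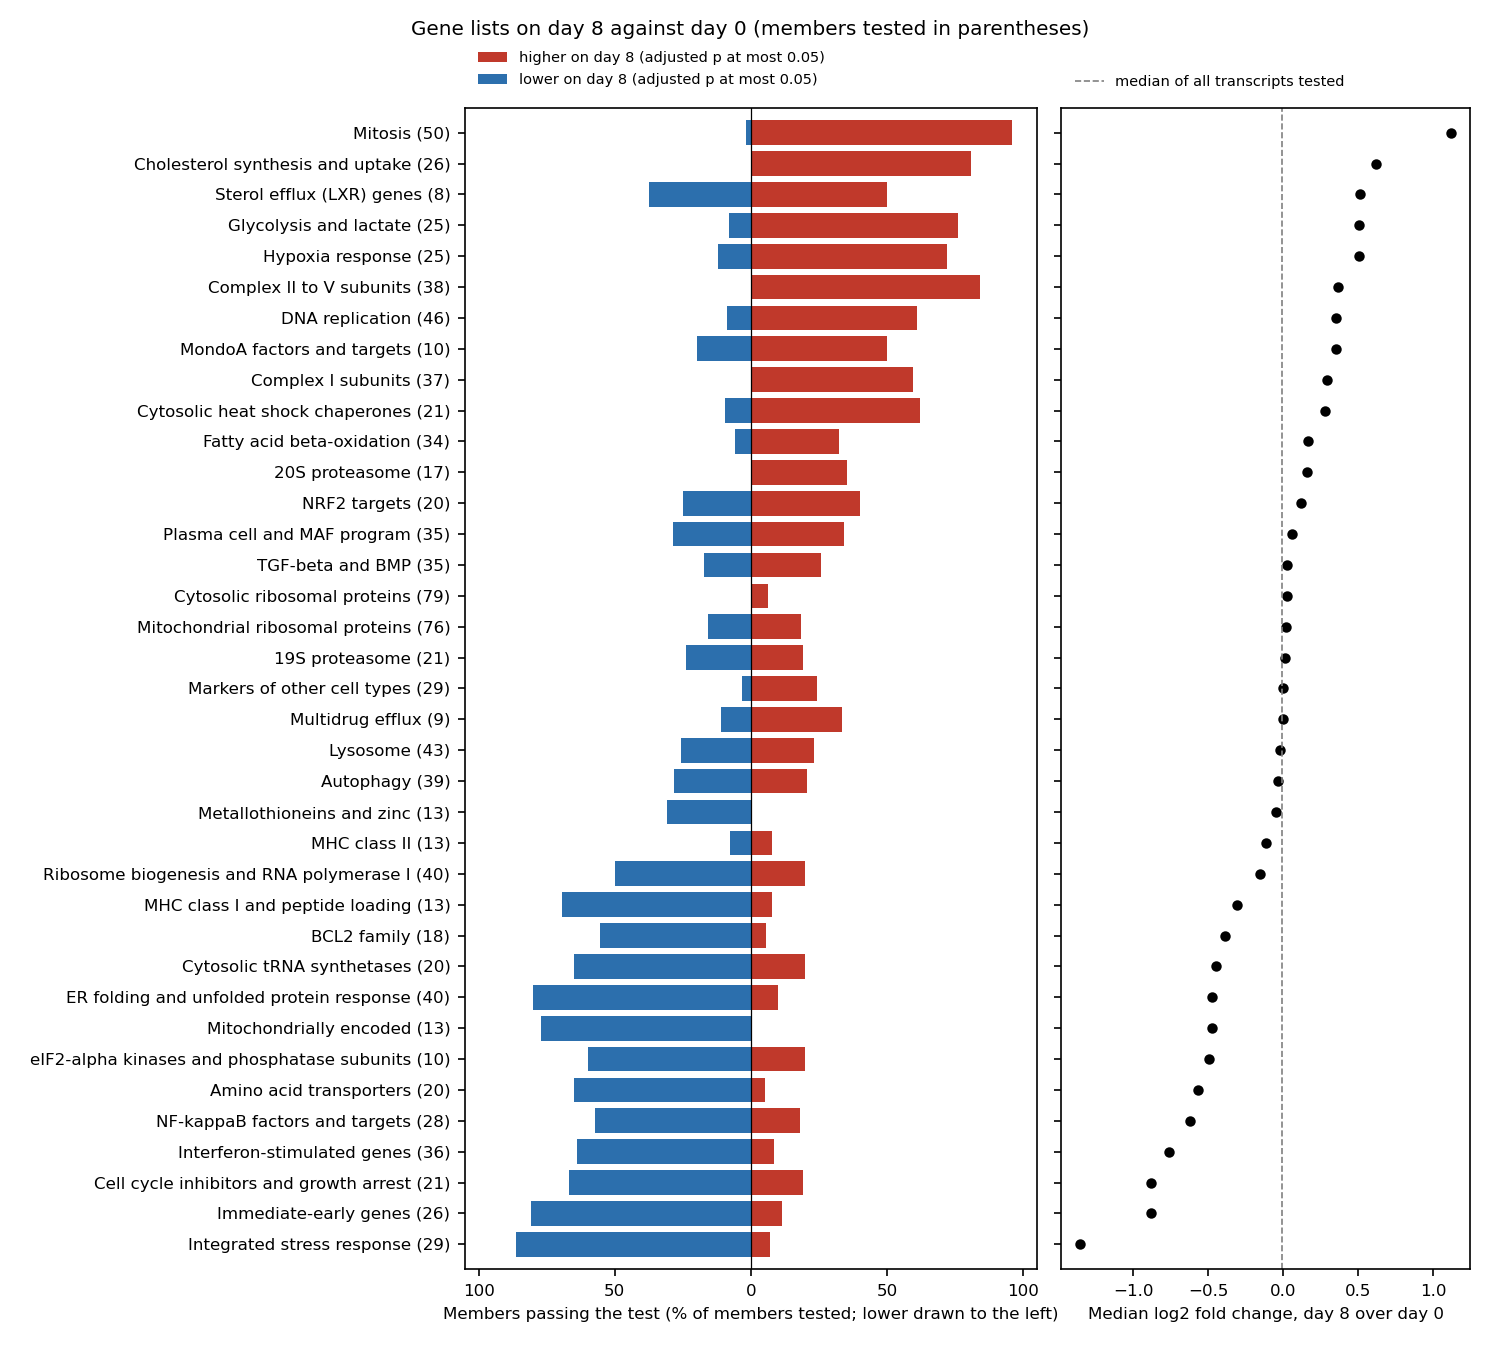
Share of the tested members of each list that were higher (red, to the right) or lower (blue, to the left) on day 8 at an adjusted p of at most 0.05, and the median log2 fold change of each list (right panel, the dashed line is the median of all transcripts, -0.01). The lists run from mitosis at the top (48 of 50 higher) to the integrated stress response at the bottom (25 of 29 lower).

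Several of the deepest falls are given here together with the list of growth arrest genes, and not all of them act to arrest growth. Of 21 tested members of the list of cell cycle inhibitors and growth arrest genes, 14 were lower, 10 of them more than 2-fold, and 4 were higher (median log2 fold change -0.88). MDM2, a ubiquitin ligase, lies at chr12:68808177-68845544 (GRCh38). It was measured at 1818, 1633, 1936, 1642 and 1576 CPM on day 0. For MDM2 the day 8 libraries gave 66.00, 58.7, 57.2, 62.6 and 64.4 CPM. Every day 8 library was thus far below every day 0 library (log2 fold change -4.80, SE 0.078, edgeR adjusted p = 6.55e-37). CDKN1A, the p21 inhibitor of cyclin-dependent kinases (chr6:36676460-36687337), was at 672, 505, 588, 493 and 471 CPM on day 0. The day 8 CDKN1A values were 40.3, 48.3, 38.8, 36.5 and 45.2 CPM. The groups were far apart here too (log2 fold change -3.70, SE 0.099, edgeR adjusted p = 3.59e-29). RRAD, a small GTP-binding protein, fell from 197 ± 5.48 to 3.37 ± 1.37 CPM (SD, n = 5; log2 fold change -5.89, SE 0.16, edgeR adjusted p = 3.59e-29). TIGAR, a phosphatase that slows glycolysis, fell from 84.04 ± 5.49 to 4.87 ± 1.72 CPM (log2 fold change -4.13, SE 0.17, edgeR adjusted p = 1.64e-22). PHLDA3, an inhibitor of AKT, summed to 746 counts in the day 0 libraries. Only 2 were seen in the day 8 libraries, so that the ratio per protein-coding count was 406 (95% exact binomial interval 112 to 3359, counting error only). GDF15, a secreted stress factor, summed to 155 counts before the pulse and to 1 afterwards, with a ratio of 169 (interval 29.8 to 6708).

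The fall of MDM2 was in place on day 1, and its level was much the same on every later day. Its means were 73.6, 58.4, 61.3, 65.3 and 67.6 CPM on days 1, 2, 4, 6 and 10, against 1721 CPM on day 0.

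**Figure D2:**
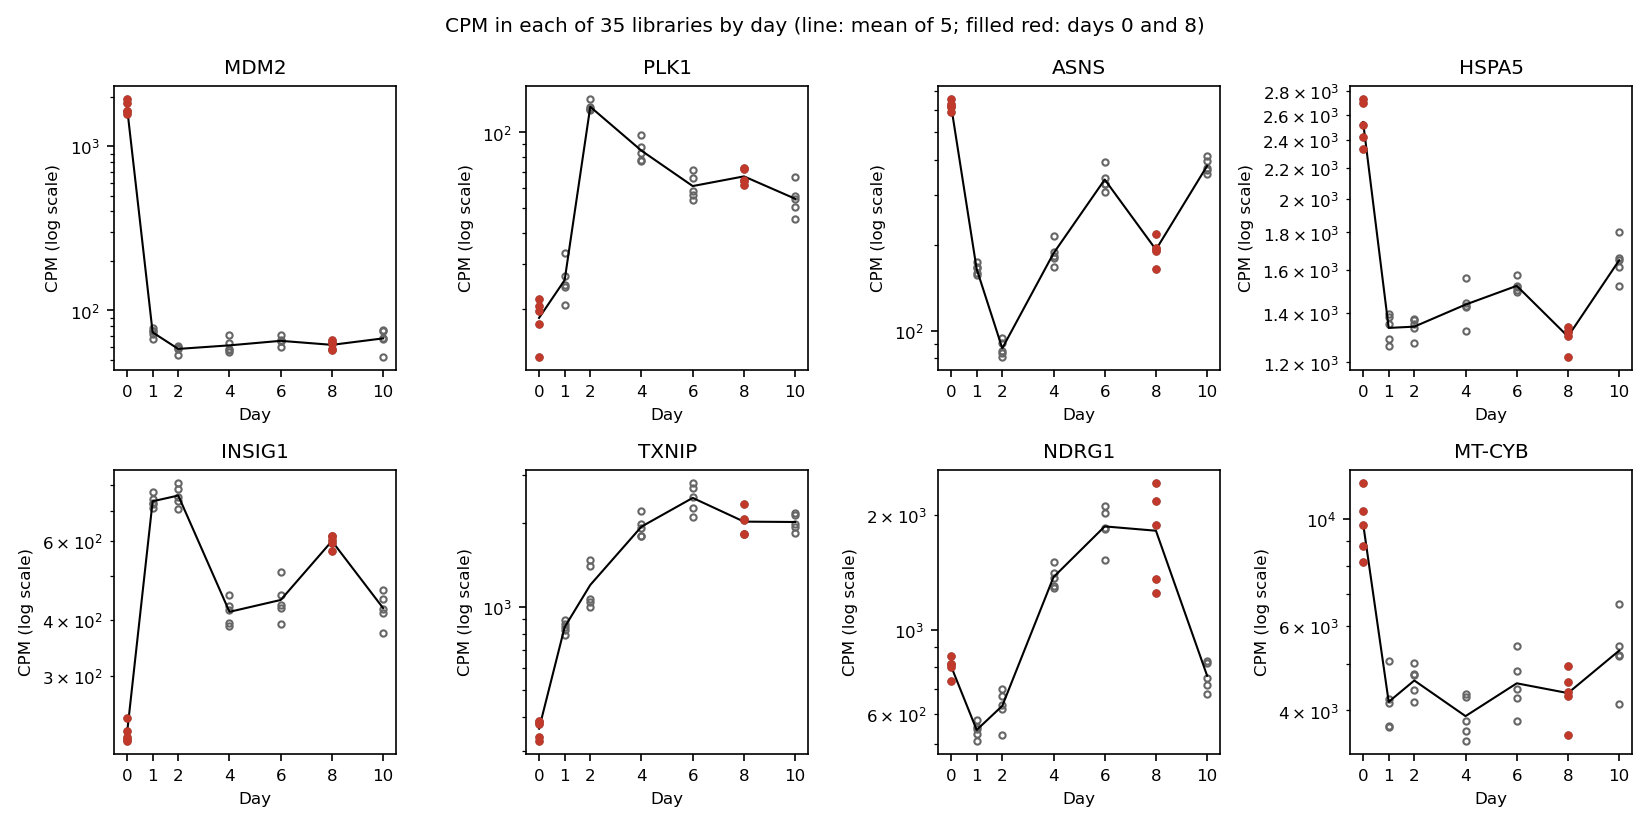
CPM (log scale) of 8 transcripts in each of the 35 libraries by day, with the mean of 5 libraries as a line and days 0 and 8 filled in red. MDM2 and MT-CYB are low on every day after day 0, ASNS and HSPA5 are lower on day 8 than on days 6 and 10, INSIG1 is higher on day 8 than on days 6 and 10, and the day 8 libraries of NDRG1 spread from 1250 to 2436 CPM.

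Not all growth arrest genes were low. CDKN1C, the p57 inhibitor of cyclin-dependent kinases, was at 22.1, 23.8, 14.3, 21.8 and 17.5 CPM on day 0. CDKN1C on day 8 was at 87.3, 103, 73.3, 70.5 and 119.5 CPM. All 5 day 8 libraries were above the day 0 libraries (log2 fold change 2.17, SE 0.14, edgeR adjusted p = 2.67e-16). On day 10 it was lower again than on day 8 (log2 fold change of day 10 over day 8 -1.46, adjusted p = 5.76e-11). CCND2, the cyclin D that MAF is known to drive, had 1 of the 5 largest losses in CPM among transcripts past both cutoffs and was at 1296, 1366, 1328, 1301 and 1322 CPM on day 0. For CCND2 the day 8 libraries gave 637, 576, 583, 607 and 539.7 CPM (log2 fold change -1.17, SE 0.047, edgeR adjusted p = 6.52e-23).

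Mitotic genes were higher almost without exception. Of 50 members of the mitosis list, 48 were higher on day 8, 33 of them more than 2-fold, and 1 was lower (18.2% and 18.6% of all transcripts). PLK1, the kinase that drives entry into and progress through mitosis (chr16:23677656-23690367), was at 21.8, 17.3, 19.5, 12.8 and 20.4 CPM on day 0. The day 8 PLK1 values were 61.6, 64.4, 64.9, 72.04 and 71.8 CPM. The 2 groups were far apart (log2 fold change 1.85, SE 0.11, edgeR adjusted p = 2.08e-17). KIF20A, a kinesin of cytokinesis, was at 5.77, 4.60, 2.68, 4.41 and 3.08 CPM on day 0. KIF20A on day 8 was at 16.2, 19.5, 25.5, 22.4 and 23.4 CPM (log2 fold change 2.35, SE 0.15, edgeR adjusted p = 2.52e-16). CCNA2, the cyclin of S and G2 phase, rose from 10.3 ± 0.801 to 34.3 ± 4.16 CPM (log2 fold change 1.74, SE 0.13, edgeR adjusted p = 1.48e-14). AURKA, the centrosomal kinase, rose from 6.47 ± 0.656 to 21.5 ± 2.20 CPM (log2 fold change 1.73, SE 0.14, edgeR adjusted p = 2.07e-13). KIF15, a spindle kinesin, rose from 5.83 ± 4.51 to 18.8 ± 3.25 CPM (log2 fold change 1.73, adjusted p = 1.97e-06), with day 0 libraries that ran from 0.141 to 10.8 CPM. BUB3, a spindle checkpoint protein, was the member that fell, and by little (120.5 ± 4.36 to 109 ± 4.96 CPM; log2 fold change -0.14, SE 0.048, edgeR adjusted p = 0.02), and it lost the call with any 1 of 5 libraries left out.

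Many mitotic promoters hold the cell cycle homology region, a short element through which the DREAM complex represses them outside G2 and M phase. Its letters TTTGAA, on either strand, were found between 250 bases before and 50 bases after the RefSeq start (GRCh38.p14) of 29 of the 43 mitosis members with a promoter in the table (67.4%), and in 15.4% of all 27305 promoters. The median log2 fold change was 1.11 with the letters (29 of 29 higher) and 1.16 without them (14 of 14 higher). The stretches around the match are shown for 5 members that hold it, with the match in capitals, 5′ to 3′ on the strand of the gene. Members on a chromosome that was left out were dropped first, and the largest fold changes among the rest were taken. A member with a larger fold change may thus be missing.
PLK1 (chr16:23678820-23678895, plus strand): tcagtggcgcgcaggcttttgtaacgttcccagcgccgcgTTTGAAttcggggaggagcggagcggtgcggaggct
KIF15 (chr3:44761719-44761794, plus strand): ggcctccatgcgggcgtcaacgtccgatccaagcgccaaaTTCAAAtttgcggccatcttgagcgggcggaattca
ANLN (chr7:36389802-36389877, plus strand): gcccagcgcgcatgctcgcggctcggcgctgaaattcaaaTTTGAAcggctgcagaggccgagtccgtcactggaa
DLGAP5 (chr14:55191566-55191622, minus strand): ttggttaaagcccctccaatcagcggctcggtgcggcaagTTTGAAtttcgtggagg
KIF18A (chr11:28108137-28108206, minus strand): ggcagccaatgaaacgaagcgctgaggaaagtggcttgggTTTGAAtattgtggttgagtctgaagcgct

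DNA replication genes were higher in 28 of 46 members, 7 of them more than 2-fold, and lower in 4 (median log2 fold change 0.35). Without day 8 replicate 2, 2 members were lower. RRM2, the small subunit of ribonucleotide reductase, was at 23.1, 23.2, 27.3, 26.1 and 25.99 CPM on day 0. For RRM2 the day 8 libraries gave 78.2, 67.2, 81.9, 77.5 and 76.4 CPM (log2 fold change 1.60, SE 0.08, edgeR adjusted p = 6.47e-20). TK1, thymidine kinase, rose from 33.8 ± 3.32 to 78.3 ± 5.86 CPM (log2 fold change 1.21, SE 0.076, edgeR adjusted p = 1.04e-16). MCM10, a replication initiation factor, rose from 5.44 ± 1.01 to 13.9 ± 1.74 CPM (log2 fold change 1.38, SE 0.14, edgeR adjusted p = 1.11e-10). PCNA, the sliding clamp of the replication fork, went the other way and was at 157, 166, 161, 187 and 172 CPM on day 0. The day 8 PCNA values were 64.95, 61.9, 77.4, 83.7 and 71.8 CPM. Its groups did not overlap (log2 fold change -1.23, SE 0.071, edgeR adjusted p = 5.18e-18).

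Genes of the integrated stress response were the most lowered list: 25 of 29 members were lower, 17 of them more than 2-fold, and 2 were higher (median log2 fold change -1.36). ASNS, asparagine synthetase (chr7:97851677-97872542), was at 619.8, 613, 588, 656 and 630.1 CPM on day 0. ASNS on day 8 was at 194, 219.6, 192, 165 and 196 CPM. Means were 622 CPM on day 0 and 193 CPM on day 8 (log2 fold change -1.68, SE 0.065, edgeR adjusted p = 1.63e-23). ASS1, argininosuccinate synthetase, which is in none of the lists, had the largest fall in CPM but for MT-CYB and MDM2 among the transcripts past both cutoffs: it was at 2284, 2159, 2031, 2302 and 2332 CPM on day 0. For ASS1 the day 8 libraries gave 569.7, 753, 586, 558 and 646 CPM (log2 fold change -1.83, SE 0.08, edgeR adjusted p = 7.47e-22). SLC7A11, the cystine transporter, was at 182, 182, 183, 174 and 187 CPM on day 0. The day 8 SLC7A11 values were 62.7, 56.6, 50.5, 52.4 and 46.5 CPM (log2 fold change -1.75, SE 0.085, edgeR adjusted p = 2.13e-20).

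Further members with known roles in stress were lower as well. SESN2, an inhibitor of mTORC1, fell from 247 ± 17.97 to 82.7 ± 11.7 CPM (log2 fold change -1.58, adjusted p = 1.04e-16). DDIT3, the pro-apoptotic transcription factor CHOP, fell from 60.8 ± 9.20 to 21.8 ± 3.87 CPM (log2 fold change -1.48, adjusted p = 9.77e-13). ATF3, a transcription factor of the same pathway, fell from 108 ± 20.4 to 21.7 ± 3.57 CPM (log2 fold change -2.31, adjusted p = 3.42e-19). PHGDH, the first enzyme of serine synthesis, fell from 185 ± 24.1 to 46.4 ± 9.67 CPM (log2 fold change -1.98, adjusted p = 4.65e-13). INHBE, an activin subunit, fell from 24.1 ± 2.45 to 4.91 ± 0.902 CPM (log2 fold change -2.29, adjusted p = 4.83e-14). ATF4 itself fell less, from 856 ± 49.6 to 587 ± 34.5 CPM (log2 fold change -0.54, SE 0.054, edgeR adjusted p = 3.61e-11). CHAC1, a glutathione-degrading enzyme, was at 17.4, 13.6, 13.9, 14.6 and 13.9 CPM on day 0. CHAC1 on day 8 was at 14.1, 18.1, 15.9, 14.7 and 18.2 CPM. Its groups overlapped and it did not pass the test (log2 fold change 0.14, SE 0.15, edgeR adjusted p = 0.521). VLDLR, a lipoprotein receptor, was 1 of the 2 higher members (2.91 ± 0.745 to 6.16 ± 1.99 CPM; log2 fold change 1.07, adjusted p = 2.25e-04).

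Amino acid transporters and tRNA synthetases, some of which ATF4 also controls, were mostly lower too. Of 20 transporters 13 were lower and 1 was higher (median log2 fold change -0.57). SLC7A5, the large neutral amino acid transporter LAT1, was at 1112, 1067, 944, 1072 and 1048 CPM on day 0. For SLC7A5 the day 8 libraries gave 465, 566, 451, 433 and 516 CPM (log2 fold change -1.11, SE 0.064, edgeR adjusted p = 4.76e-18). SLC3A2, its heavy chain, fell from 761 ± 52.7 to 266 ± 34.1 CPM (log2 fold change -1.52, SE 0.073, edgeR adjusted p = 1.58e-20). SLC6A9, a glycine transporter, fell from 93.1 ± 8.49 to 25.2 ± 5.28 CPM (log2 fold change -1.88, adjusted p = 1.02e-17). SLC7A1, an arginine transporter, fell from 363 ± 19.9 to 188 ± 15.1 CPM (log2 fold change -0.94, adjusted p = 4.33e-18). SLC1A5, a glutamine transporter, fell from 612 ± 36.03 to 347 ± 35.6 CPM (log2 fold change -0.82, adjusted p = 5.08e-14). SLC38A2, a system A transporter, was the higher one, at 379.6, 337, 374, 348 and 347 CPM on day 0. The day 8 SLC38A2 values were 446, 486, 458, 439 and 437 CPM (log2 fold change 0.34, SE 0.045, edgeR adjusted p = 4.08e-08). Without day 8 replicate 1, 2 transporters were higher. Of 20 cytosolic tRNA synthetases 13 were lower and 4 higher (median -0.45). WARS, the tryptophanyl enzyme, was at 343, 358, 310.5, 359.7 and 362 CPM on day 0. WARS on day 8 was at 94.3, 104, 83.2, 71.3 and 101 CPM (log2 fold change -1.93, SE 0.081, edgeR adjusted p = 1.93e-22). SARS and MARS, for serine and methionine, fell from 263 ± 18.6 to 108 ± 14.00 CPM and from 375 ± 33.1 to 172 ± 17.4 CPM, while FARSA, a phenylalanine subunit, rose from 90.4 ± 7.46 to 107 ± 6.74 CPM (log2 fold change 0.24, adjusted p = 0.00142).

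Many of these genes were lower on day 8 than on both neighbouring days, in comparisons that share the day 8 libraries. Against day 6, 275 transcripts (1.53%) were lower and 186 (1.03%) higher on day 8; among them were 22 lower and 1 higher of the 29 stress response members, 9 lower of the 20 transporters and 12 lower of the 20 synthetases. Against day 8, 915 transcripts (5.08%) were higher and 894 (4.97%) lower on day 10, with 22 stress response members higher and 1 lower, 12 transporters higher and 2 lower, and 14 synthetases higher and 1 lower. ASNS had means of 165, 86.9, 188, 341 and 382 CPM on days 1, 2, 4, 6 and 10 (day 8 over day 6 -0.82, adjusted p = 2.40e-11; day 10 over day 8 0.98, adjusted p = 2.12e-14). For SLC7A11 they were 64.3, 16.6, 55.8, 89.4 and 118 CPM on days 1, 2, 4, 6 and 10, and for ASS1 339, 213, 497, 1136 and 1106 CPM on days 1, 2, 4, 6 and 10. By contrast, 0 of the 21 growth arrest genes was lower and 1 was higher on day 8 than on day 6. The study's methods give medium changes every 48 h and density adjustments on days 6 and 8, and their part in these differences was not tested.

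Kinases and phosphatases of eIF2-alpha were also measured: 6 of 10 were lower and 2 higher. PPP1R15A, the stress-induced phosphatase subunit GADD34, fell from 80.96 ± 7.11 to 18.9 ± 2.49 CPM (log2 fold change -2.10, SE 0.1, edgeR adjusted p = 2.96e-20). EIF2AK3, the kinase PERK of the endoplasmic reticulum, fell from 81.1 ± 1.77 to 48.2 ± 2.65 CPM (log2 fold change -0.75, adjusted p = 6.96e-13). EIF2AK4, the amino acid sensing kinase GCN2, fell from 255 ± 9.60 to 177 ± 12.1 CPM (log2 fold change -0.53, adjusted p = 2.93e-10).

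Folding genes of the endoplasmic reticulum were lower in 32 of 40 members and higher in 4 (median log2 fold change -0.47), and 4 fell more than 2-fold. HSPA5, the chaperone BiP (chr9:125234853-125241382), was at 2424, 2519.9, 2336, 2692 and 2730.3 CPM on day 0. For HSPA5 the day 8 libraries gave 1220.0, 1341, 1323, 1303 and 1319 CPM. No day 8 library reached the lowest day 0 library (log2 fold change -0.96, SE 0.048, edgeR adjusted p = 6.93e-20). SEL1L, an adaptor of protein disposal from the endoplasmic reticulum, fell the most and was at 578, 548, 538, 565 and 527 CPM on day 0. The day 8 SEL1L values were 169, 184, 155, 151 and 169.9 CPM (log2 fold change -1.73, SE 0.06, edgeR adjusted p = 4.15e-25). HYOU1, a large chaperone, fell from 1056 ± 39.2 to 487 ± 18.4 CPM (log2 fold change -1.12, adjusted p = 1.15e-23). DNAJB9, a co-chaperone, fell from 176 ± 10.97 to 77.3 ± 10.7 CPM (log2 fold change -1.18, adjusted p = 1.22e-14). DNAJC3, the co-chaperone P58IPK, fell from 139 ± 3.41 to 87.9 ± 2.93 CPM (log2 fold change -0.66, adjusted p = 1.81e-14). DERL3, a disposal channel component, rose from 69.8 ± 7.27 to 88.8 ± 4.98 CPM (log2 fold change 0.34, SE 0.074, edgeR adjusted p = 2.25e-04).

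The stress element of endoplasmic reticulum chaperone promoters binds NF-Y and ATF6. Its letters are CCAAT, then a spacer of any bases (9 of them), and then CCACG. On either strand it was found in the same 300 bases of 7 of the 36 members with a promoter in the table (19.4%) and in 0.0806% of all promoters. Of the 7 members 6 were lower (median log2 fold change -0.36), as were 24 of the 29 without a match (-0.51). It is shown in capitals for the 5 with the largest absolute fold changes after the same exclusion by chromosome.
ERO1B (chr1:236282153-236282208, minus strand): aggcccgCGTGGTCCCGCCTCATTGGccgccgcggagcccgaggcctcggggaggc
HSPA5 (chr9:125241361-125241449, minus strand): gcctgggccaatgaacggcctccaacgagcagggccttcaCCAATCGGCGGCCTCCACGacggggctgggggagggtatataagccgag
CRELD2 (chr22:49918514-49918602, plus strand): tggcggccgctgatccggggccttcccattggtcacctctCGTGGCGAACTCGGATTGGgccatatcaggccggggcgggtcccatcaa
HSP90B1 (chr12:103930281-103930369, plus strand): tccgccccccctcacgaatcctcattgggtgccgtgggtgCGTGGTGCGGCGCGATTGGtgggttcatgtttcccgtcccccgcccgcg
CALR (chr19:12938359-12938432, plus strand): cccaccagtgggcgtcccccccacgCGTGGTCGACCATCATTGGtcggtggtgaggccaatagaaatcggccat

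Cholesterol genes were higher in 21 of 26 members and lower in 0, and 6 of them rose more than 2-fold (median log2 fold change 0.62). INSIG1, which holds the sterol sensor in the endoplasmic reticulum (chr7:155297776-155310235), was at 242, 216, 219, 226 and 214 CPM on day 0. INSIG1 on day 8 was at 615, 592, 603, 570.3 and 613 CPM (log2 fold change 1.42, SE 0.059, edgeR adjusted p = 1.63e-22). MSMO1, a sterol methyl oxidase, rose from 16.5 ± 1.86 to 66.5 ± 5.23 CPM (log2 fold change 2.01, adjusted p = 2.01e-21). FDFT1, squalene synthase, rose from 105 ± 9.41 to 234 ± 12.6 CPM (log2 fold change 1.16, adjusted p = 2.00e-18). SC5D, a sterol desaturase, had the lowest fold change, with means of 21.8 ± 1.73 to 19.1 ± 2.49 CPM, and did not pass the test (log2 fold change -0.19, adjusted p = 0.178). On day 8, 14 of the 26 were higher and 0 lower than on day 6, and 13 were lower and 0 higher on day 10 than on day 8.

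The list of sterol efflux and other genes that the nuclear receptor LXR controls was mixed, with 4 of 8 higher and 3 lower. ABCA1 and ABCG1, the cholesterol exporters, fell from 33.9 ± 4.33 to 17.8 ± 1.51 CPM (log2 fold change -0.93, adjusted p = 1.25e-07) and from 78.1 ± 1.07 to 44.4 ± 6.46 CPM (log2 fold change -0.81, adjusted p = 6.04e-10). MYLIP, a ligase for the LDL receptor, rose from 46.5 ± 5.93 to 111 ± 6.94 CPM (log2 fold change 1.24, adjusted p = 5.03e-16). SCD, stearoyl-CoA desaturase, rose from 776 ± 45.1 to 1361 ± 58.8 CPM (log2 fold change 0.81, adjusted p = 5.35e-17).

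Glycolytic genes were higher in 19 of 25 members and lower in 2 (median log2 fold change 0.51). PKM, pyruvate kinase, had the largest gain in CPM of all transcripts past both cutoffs and was at 1836, 1855, 1635, 1984 and 1953 CPM on day 0. For PKM the day 8 libraries gave 3664, 3911, 3819, 3719 and 4213 CPM (log2 fold change 1.06, SE 0.058, edgeR adjusted p = 1.38e-18). PGK1, phosphoglycerate kinase, rose from 779 ± 60.9 to 1526 ± 81.8 CPM (log2 fold change 0.97, SE 0.053, edgeR adjusted p = 1.21e-18). GPI, glucose-6-phosphate isomerase, rose from 467 ± 29.5 to 950.3 ± 62.6 CPM (log2 fold change 1.02, adjusted p = 1.59e-17). ALDOC, aldolase C, rose from 87.6 ± 5.80 to 201 ± 19.1 CPM (log2 fold change 1.19, adjusted p = 2.32e-17). The means of PKM were 6987, 5503, 4114, 3197 and 2980.1 CPM on days 1, 2, 4, 6 and 10. On day 10, 16 of the 25 were lower than on day 8 and 0 higher.

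Of 25 genes of the hypoxia response 18 were higher and 3 lower (median 0.50), and several differed between the day 8 libraries. NDRG1, a stress-induced protein, was at 812, 814, 733, 799 and 851 CPM on day 0. The day 8 NDRG1 values were 1888, 2436, 1357, 1250.0 and 2182 CPM. PFKFB4, which makes an activator of glycolysis, was at 15.9, 13.2, 13.9, 13.8 and 13.7 CPM on day 0. PFKFB4 on day 8 was at 70.2, 69.7, 33.96, 31.7 and 53.1 CPM. EGLN3, an oxygen-sensing prolyl hydroxylase, was at 18.8, 15.9, 16.3, 15.8 and 14.6 CPM on day 0. For EGLN3 the day 8 libraries gave 47.5, 57.96, 24.3, 23.1 and 59.8 CPM. In all 3 the day 8 replicates 3 and 4 were the lowest of their day and still above every day 0 library (NDRG1 log2 fold change 1.18, SE 0.11, edgeR adjusted p = 6.19e-12; PFKFB4 log2 fold change 1.87, adjusted p = 8.41e-13; EGLN3 log2 fold change 1.37, adjusted p = 1.17e-07). SLC2A1, the glucose transporter GLUT1, was at 50.8, 58.9, 33.4, 55.7 and 53.3 CPM on day 0. The day 8 SLC2A1 values were 67.6, 92.7, 39.7, 40.3 and 86.4 CPM. The same 2 replicates lay within the day 0 range and the transcript did not pass the test (log2 fold change 0.37, SE 0.16, edgeR adjusted p = 0.0588); with replicate 3 or replicate 4 of day 8 left out it passed, at log2 fold changes of 0.51 and 0.52 (adjusted p = 0.00524 and 0.00437). It also passed with day 0 replicate 2 or 4 left out, without scaling factors and with DESeq2 (adjusted p = 0.0309, 0.0454, 0.0315 and 0.0477). BNIP3, a mitophagy receptor, rose from 28.7 ± 3.09 to 68.4 ± 7.81 CPM (log2 fold change 1.25, adjusted p = 1.53e-15). AK4, an adenylate kinase, rose from 27.2 ± 2.29 to 56.3 ± 9.31 CPM (log2 fold change 1.05, adjusted p = 4.99e-13). ANKRD37 was called lower (16.00 ± 1.66 to 10.6 ± 4.93 CPM; log2 fold change -0.58, adjusted p = 0.0349) but lost the call with any 1 of 7 libraries left out. The 3 lower members became 1 without day 0 replicate 1, 4 or 5 or day 8 replicate 3 or 4. On day 10 NDRG1 was back at a mean of 756 CPM.

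**Figure D3:**
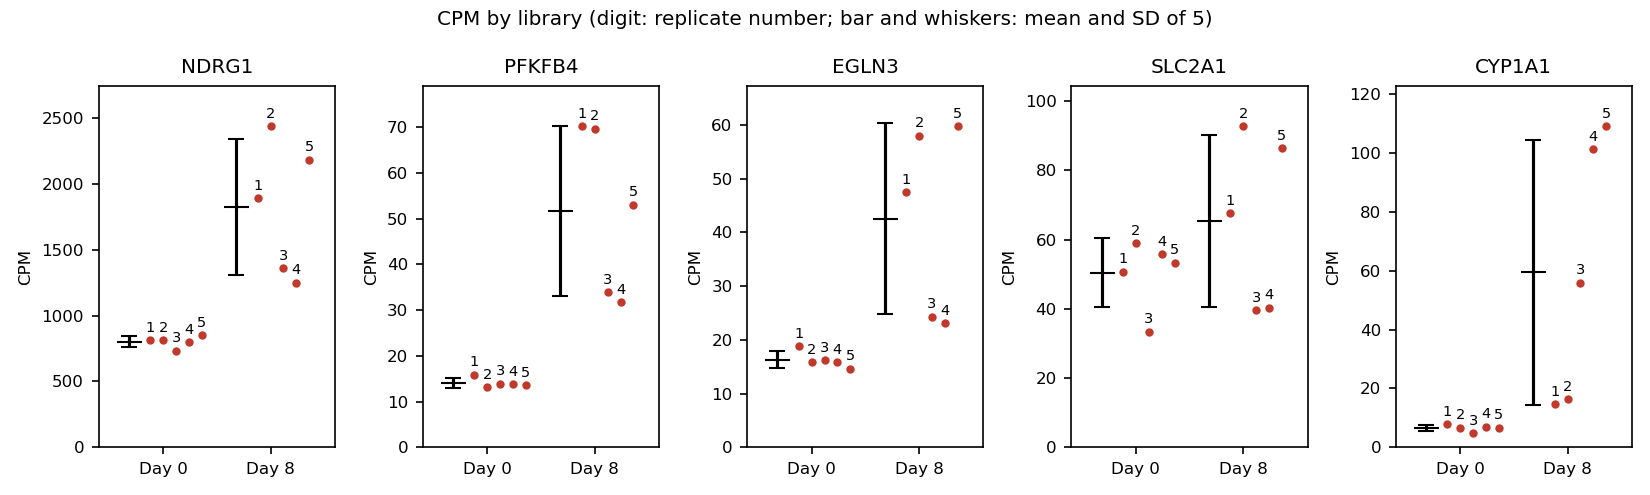
CPM (linear axes from 0) of 5 transcripts in each library of days 0 and 8, with the replicate number above each point and the mean and SD of 5 as bar and whiskers. Day 8 replicates 3 and 4 are the lowest for NDRG1, PFKFB4, EGLN3 and SLC2A1, whereas for CYP1A1 replicates 1 and 2 are the lowest.

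TXNIP, which limits glucose uptake and binds thioredoxin (chr1:145992435-145996579), was at 327, 376, 338, 385 and 387 CPM on day 0. TXNIP on day 8 was at 1832, 2059.7, 1838, 2347 and 2075 CPM (log2 fold change 2.49, SE 0.093, edgeR adjusted p = 6.45e-24). Among 10 factors and targets of MondoA, the glucose-sensing transcription factor that drives TXNIP, 5 were higher and 2 lower, or 1 lower without day 0 replicate 2 or day 8 replicate 4. ARRDC3, an arrestin-like gene, rose from 44.7 ± 5.23 to 119 ± 17.3 CPM (log2 fold change 1.40, SE 0.098, edgeR adjusted p = 1.98e-15), while ARRDC4, a close relative, fell from 10.7 ± 1.05 to 6.84 ± 1.65 CPM (log2 fold change -0.65, SE 0.17, edgeR adjusted p = 0.00204). MLXIP, which encodes MondoA, rose from 96.6 ± 7.28 to 125 ± 15.2 CPM (log2 fold change 0.37, adjusted p = 1.86e-05).

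The transcripts of the respiratory chain split by genome. None of the 13 mitochondrially encoded transcripts was higher and 10 were lower (median log2 fold change -0.48), with a summed level of 100520 ± 15903 CPM on day 0 and 72091 ± 8558 CPM on day 8 (SD, n = 5). MT-CYB, cytochrome b, was at 8809.8, 10420.0, 11892, 9739.9 and 8130.5 CPM on day 0. For MT-CYB the day 8 libraries gave 4589.9, 4363, 4278, 4952 and 3552 CPM. Its groups did not overlap (log2 fold change -1.17, SE 0.11, edgeR adjusted p = 2.94e-12). MT-ND4, a subunit of complex I, was at 12459, 14783, 17681, 14228 and 11918 CPM on day 0. The day 8 MT-ND4 values were 13399, 12083, 12408, 13965 and 10146 CPM, with overlapping groups, and did not pass (log2 fold change -0.20, SE 0.095, edgeR adjusted p = 0.105). The nuclear-encoded subunits went the other way: 22 of 37 of complex I and 32 of 38 of complexes II to V were higher and 0 lower (medians 0.29 and 0.36), and none rose more than 2-fold. SDHA, the catalytic subunit of succinate dehydrogenase, was at 171, 174, 154, 166 and 180.0 CPM on day 0. SDHA on day 8 was at 254, 279.9, 296, 311 and 318 CPM (log2 fold change 0.79, SE 0.053, edgeR adjusted p = 7.69e-16). UQCRQ, of complex III, rose from 35.3 ± 2.37 to 63.8 ± 9.54 CPM (log2 fold change 0.85, adjusted p = 4.25e-11). Fatty acid beta-oxidation genes were higher in 11 and lower in 2 of 34, beside 18.2% and 18.6% of all transcripts. Among them ACADVL, a long-chain acyl-CoA dehydrogenase, rose from 117 ± 8.95 to 191 ± 9.76 CPM (log2 fold change 0.70, edgeR adjusted p = 6.66e-14). Mitochondrial ribosomal proteins were divided, with 14 of 76 higher and 12 lower, shares near those of all transcripts.

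Of the 19S regulatory particle of the proteasome 4 of 21 subunits were higher and 5 lower, and of the 20S core 6 of 17 were higher and 0 lower (medians 0.01 and 0.16). Across the alternative settings the count of higher 20S subunits ran from 4, without day 0 replicate 3, to 7, without scaling factors. None of the subunits differed more than 2-fold. Of all transcripts 18.2% were higher and 18.6% lower, and the 19S shares were near these. PSMD1, a 19S base subunit, was at 57.1, 54.8, 44.2, 60.1 and 52.7 CPM on day 0. For PSMD1 the day 8 libraries gave 68.4, 64.9, 74.1, 88.8 and 78.5 CPM (log2 fold change 0.48, SE 0.076, edgeR adjusted p = 1.77e-06). PSMD12, a 19S lid subunit, fell from 49.6 ± 4.02 to 35.1 ± 1.85 CPM (log2 fold change -0.50, adjusted p = 4.50e-06). PSMB5, the subunit that carfilzomib binds, rose from 53.4 ± 5.08 to 62.7 ± 3.96 CPM (log2 fold change 0.23, adjusted p = 0.00706). VCP, the segregase that feeds ubiquitinated proteins to the proteasome, was at 93.1, 95.5, 90.3, 80.8 and 102 CPM on day 0. The day 8 VCP values were 85.03, 82.1, 98.1, 92.1 and 106 CPM, with overlapping groups (log2 fold change 0.00, SE 0.07, edgeR adjusted p = 1.00). Its cofactor NPLOC4 fell from 164 ± 5.64 to 121 ± 7.71 CPM (log2 fold change -0.44, adjusted p = 6.21e-09). UFD1L, its other cofactor, went from 8.88 ± 1.11 to 11.2 ± 2.21 CPM (log2 fold change 0.33, adjusted p = 0.0353) and lost the call with any 1 of 6 libraries left out.

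Stress-induced genes outside the proteasome were also measured. HMOX1, heme oxygenase 1, which NRF2 and HSF1 induce, was at 3.66, 4.28, 1.97, 4.61 and 5.39 CPM on day 0. HMOX1 on day 8 was at 12.7, 15.9, 7.96, 9.30 and 12.3 CPM (log2 fold change 1.56, SE 0.22, edgeR adjusted p = 1.99e-07). Its mean on day 1 was 187 CPM. Of 20 NRF2 targets 8 were higher and 5 lower, beside 18.2% and 18.6% of all transcripts. TKT, transketolase, was among the higher ones (283 ± 9.89 to 569 ± 38.9 CPM, log2 fold change 1.01, edgeR adjusted p = 3.15e-18). Of 21 cytosolic chaperones of the heat shock response 13 were higher and 2 lower: CHORDC1, an HSP90 co-chaperone, rose from 18.7 ± 1.71 to 40.2 ± 6.82 CPM (log2 fold change 1.10, adjusted p = 1.54e-11), and HSPA1B, an inducible HSP70 with a near-identical copy, fell from 168 ± 23.7 to 121 ± 8.63 CPM (log2 fold change -0.46, adjusted p = 3.15e-05).

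Immediate-early genes, which growth factors and stress switch on within minutes, were lower in 21 of 26 members, 12 of them more than 2-fold, and higher in 3 (median log2 fold change -0.88). FOSB, a subunit of AP-1 (chr19:45467995-45475179), was at 79.04, 65.4, 78.5, 74.8 and 69.7 CPM on day 0. For FOSB the day 8 libraries gave 0.873, 1.23, 0.451, 1.13 and 1.15 CPM (log2 fold change -6.21, SE 0.22, edgeR adjusted p = 1.25e-24). NR4A1, an orphan nuclear receptor, was at 276, 262, 255, 259.7 and 247 CPM on day 0. The day 8 NR4A1 values were 20.1, 19.5, 17.9, 18.8 and 19.2 CPM (log2 fold change -3.77, SE 0.067, edgeR adjusted p = 1.70e-35). KLF2, a zinc finger factor, rose from 43.7 ± 7.10 to 66.1 ± 10.7 CPM (log2 fold change 0.59, adjusted p = 0.00129). Of 28 NF-kappaB factors and targets 16 were lower and 5 higher (median -0.62). CCL3, a chemokine that myeloma cells secrete and that has near-identical copies, was at 86.5, 63.3, 62.03, 55.9 and 47.4 CPM on day 0. CCL3 on day 8 was at 2.79, 2.96, 1.20, 2.11 and 4.02 CPM (log2 fold change -4.61, SE 0.26, edgeR adjusted p = 1.86e-18). NFKBIA, the inhibitor that NF-kappaB induces, fell from 152 ± 6.68 to 34.1 ± 4.27 CPM (log2 fold change -2.16, SE 0.072, edgeR adjusted p = 1.22e-25). BIRC3, a ubiquitin ligase, fell from 255 ± 25.7 to 85.1 ± 20.1 CPM (log2 fold change -1.58, adjusted p = 2.52e-16). LTB, lymphotoxin beta, rose from 14.4 ± 3.18 to 33.2 ± 2.22 CPM (log2 fold change 1.19, adjusted p = 2.28e-09).

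Of 36 interferon-stimulated genes 23 were lower and 3 higher (median -0.76). MX1, an antiviral GTPase, was at 48.9, 47.6, 52.9, 54.1 and 52.7 CPM on day 0. For MX1 the day 8 libraries gave 7.33, 7.89, 7.21, 6.20 and 9.19 CPM (log2 fold change -2.76, SE 0.13, edgeR adjusted p = 2.59e-20). BST2, tetherin, rose from 174 ± 11.7 to 278 ± 22.6 CPM (log2 fold change 0.68, SE 0.059, edgeR adjusted p = 1.23e-12). Of 13 genes of MHC class I and peptide loading 9 were lower and 1 was higher. HLA-E fell from 829 ± 23.99 to 644 ± 56.4 CPM (log2 fold change -0.36, adjusted p = 2.53e-06), where allelic reads may be shared between HLA genes. The higher one was not called without day 0 replicate 3. Class II genes had 1 higher and 1 lower of 13, beside 18.2% and 18.6% of all transcripts. The count of higher ones was 0 without day 0 replicate 3 or 4 or day 8 replicate 2, and 2 without day 8 replicate 1; the count of lower ones was 2 without day 0 replicate 4 or day 8 replicate 1.

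Regulators of mitochondrial cell death were lower in 10 of 18 members and higher in 1 (median -0.39), and both directions of function were among them. BBC3, the pro-apoptotic PUMA, was at 147, 144, 128, 133 and 132 CPM on day 0. The day 8 BBC3 values were 29.5, 36.5, 25.8, 23.3 and 35.4 CPM (log2 fold change -2.19, SE 0.091, edgeR adjusted p = 1.63e-22). MCL1, the anti-apoptotic protein on which myeloma cells depend, was at 1120.5, 1179.8, 1230.3, 1245 and 1225 CPM on day 0. MCL1 on day 8 was at 679.9, 712, 634, 608 and 637 CPM (log2 fold change -0.87, SE 0.047, edgeR adjusted p = 7.59e-19). BCL2 fell from 568 ± 11.8 to 359 ± 31.4 CPM (log2 fold change -0.66, adjusted p = 6.96e-13). BCL2L1, which encodes BCL-XL, fell from 105 ± 9.56 to 72.8 ± 6.67 CPM (log2 fold change -0.53, adjusted p = 1.14e-08). PMAIP1, the pro-apoptotic NOXA, fell from 68.4 ± 14.4 to 33.2 ± 3.96 CPM (log2 fold change -1.05, adjusted p = 8.77e-11). HRK, a pro-apoptotic BH3 protein, was the higher one (17.4 ± 1.49 to 21.8 ± 2.61 CPM; log2 fold change 0.32, adjusted p = 0.0452), and lost the call with any 1 of 5 libraries left out. Leaving out day 0 replicate 5 brought the lower members from 10 to 6.

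Of 35 genes of the plasma cell and MAF program 12 were higher and 10 lower (median 0.06), beside 18.2% and 18.6% of all transcripts. CX3CR1, a chemokine receptor of the MAF program, was at 77.5, 79.99, 64.3, 79.6 and 84.9 CPM on day 0. For CX3CR1 the day 8 libraries gave 209, 212, 269, 285 and 207 CPM (log2 fold change 1.62, SE 0.081, edgeR adjusted p = 6.80e-20). WFS1, an endoplasmic reticulum protein, fell from 29.8 ± 4.88 to 14.8 ± 0.926 CPM (log2 fold change -1.02, adjusted p = 7.77e-09), and the B cell genes CD79A and PAX5 rose from low levels, 1.28 ± 0.413 to 3.92 ± 0.898 CPM and 1.67 ± 0.464 to 4.20 ± 0.546 CPM. The plasma cell markers were mixed too. IRF4, PRDM1 and SDC1 fell by little (log2 fold changes -0.19, -0.26 and -0.39), and SLAMF7 fell more (-0.77). CD38, a surface enzyme, MZB1 and ITGB7 rose (0.40, 0.36 and 0.15). XBP1 and TNFRSF17 did not pass the test (-0.09 and -0.002).

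Genes of protein synthesis were divided. Of 79 cytosolic ribosomal proteins 5 were higher and 0 lower (median 0.02), whereas of 40 genes of ribosome biogenesis and RNA polymerase I 20 were lower and 8 higher (median -0.16). The 5 higher ribosomal protein genes became 3 without day 0 replicate 3 or day 8 replicate 2, 9 without day 0 replicate 4 and 10 without day 8 replicate 1, and 1 was lower without day 8 replicate 5. NIP7, a factor of large subunit assembly, fell from 122 ± 9.09 to 60.5 ± 6.87 CPM (log2 fold change -1.01, adjusted p = 6.66e-17). The lysosome list had 10 higher and 11 lower of 43, and autophagy 8 and 11 of 39, beside 18.2% and 18.6% of all transcripts. ULK1, the kinase that starts autophagy, rose from 91.05 ± 11.5 to 134 ± 16.1 CPM (log2 fold change 0.56, adjusted p = 4.06e-08) and WIPI1, a phagophore protein, fell from 138 ± 16.7 to 75.5 ± 6.47 CPM (log2 fold change -0.87, adjusted p = 8.32e-10). Among 13 metallothionein and zinc genes 4 were lower and 0 higher, with SLC30A1, the zinc exporter, falling from 158 ± 12.3 to 68.00 ± 5.40 CPM (log2 fold change -1.22, adjusted p = 1.45e-18); 1 was higher without day 0 replicate 2 or day 8 replicate 3 or 4. The TGF-beta and BMP list had 9 higher and 6 lower of 35, again beside 18.2% and 18.6% of all transcripts. Its member TGFB1 rose from 155 ± 15.4 to 269 ± 27.8 CPM (log2 fold change 0.79, adjusted p = 6.55e-12). Of 9 multidrug efflux transporters 3 were higher and 1 was lower, beside the same shares of all transcripts. ABCG2 rose from 35.8 ± 1.31 to 55.4 ± 4.61 CPM (log2 fold change 0.63, edgeR adjusted p = 6.31e-10). ABCC2 fell from 3.24 ± 0.116 to 1.11 ± 0.499 CPM (log2 fold change -1.52, edgeR adjusted p = 0.00197). Without day 0 replicate 2 or day 8 replicate 1, 2 of the 9 were lower.

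Several of the largest rises among transcripts past both cutoffs, of at least 5 CPM and with groups that did not overlap, belonged to genes of no list. MYO7A, an unconventional myosin, was at 1.13, 1.43, 0.894, 0.2 and 0.193 CPM on day 0. The day 8 MYO7A values were 15.7, 12.1, 11.1, 14.8 and 9.19 CPM (log2 fold change 3.92, SE 0.25, edgeR adjusted p = 1.16e-16). SFTPA1, a surfactant protein with a near-identical copy, was at 2.81, 1.43, 4.11, 2.40 and 2.89 CPM on day 0. SFTPA1 on day 8 was at 24.97, 27.6, 23.1, 19.6 and 20.7 CPM (log2 fold change 3.09, SE 0.2, edgeR adjusted p = 9.87e-17). CYP1A1, the main target of the aryl hydrocarbon receptor, was at 7.88, 6.67, 4.83, 7.01 and 6.74 CPM on day 0. For CYP1A1 the day 8 libraries gave 14.7, 16.3, 55.9, 101 and 109 CPM, so that replicates 1 and 2 lay nearer to the day 0 libraries than to replicates 4 and 5 (log2 fold change 3.14, SE 0.47, edgeR adjusted p = 5.04e-07). SLC2A2, the glucose transporter GLUT2, rose from 1.00 ± 0.314 to 9.24 ± 0.594 CPM (log2 fold change 3.19, adjusted p = 1.80e-16). PCP4, a calmodulin-binding peptide, rose from 0.411 ± 0.473 to 5.87 ± 1.04 CPM (log2 fold change 3.77, adjusted p = 7.90e-11). TMEM229B rose from 0.898 ± 0.25 to 8.52 ± 2.44 CPM (log2 fold change 3.19, adjusted p = 2.46e-12). B3GNT3, a glycosyltransferase, rose from 0.652 ± 0.438 to 5.95 ± 0.839 CPM (log2 fold change 3.10, adjusted p = 2.52e-11). PRAMEF27, one of a family of near-identical copies, rose from 0.746 ± 0.307 to 7.14 ± 0.867 CPM (log2 fold change 3.27, adjusted p = 3.50e-11).

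SPP1, osteopontin, had 1 of the 5 largest gains in CPM among transcripts past both cutoffs and was at 131, 131, 114, 131 and 128 CPM on day 0. The day 8 SPP1 values were 573, 708, 578, 453 and 792 CPM (log2 fold change 2.29, SE 0.14, edgeR adjusted p = 1.89e-17). NAMPT, the rate-limiting enzyme of NAD salvage, had 1 of the 5 largest losses among them (1286 ± 54.1 to 546 ± 50.8 CPM; log2 fold change -1.24, adjusted p = 6.80e-21). DUX4, an embryonic transcription factor that lies in repeated copies, fell from 14.3 ± 2.93 to 0.559 ± 0.458 CPM (log2 fold change -4.72, adjusted p = 3.46e-09).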

How the data were processed

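RNA from RPMI-8226 cells was sequenced as 75-base read pairs from directional libraries in 35 libraries, 5 on each of days 0, 1, 2, 4, 6, 8 and 10. The authors quantified reads with Kallisto 0.44.0 against GENCODE release 28 (GRCh38.p12) and summarised them per gene symbol and transcript biotype; the deposited values are estimated counts, rounded to whole numbers. Per the submitters' processing notes, R 3.5.0 and DESeq2 1.25.8 were used upstream. No column was left unmapped.

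Only entries of biotype protein_coding were fitted. Of 19665 such entries, 1666 had no count and were left out, with no other filter. edgeR 4.0.16 (R 4.3.3) was fitted over all 35 libraries with TMM factors, 1 coefficient per day and the quasi-likelihood test; p-values were adjusted by Benjamini-Hochberg over the 17999 entries, and a prior count of 0.125 was used for fold changes. The cutoffs of an adjusted p of at most 0.05 and a fold above 2 follow the main text of the study; its supplementary methods set the bar at a log2 fold change of 2 or more in either direction, under which 479 transcripts are called in place of 1472. CPM are per gene and not per length, so rankings by gain or loss in CPM and other comparisons of level between genes also depend on transcript length. The 10 libraries held 6519392 to 10230383 counts, and exact binomial intervals (95%) cover counting error only. Scripts were tested on simulated data.

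Gene names in the text came from these rules: the 8 largest rises and falls among transcripts past both cutoffs with at least 5 CPM on the higher day and groups that do not overlap; the 5 largest gains and losses in CPM among transcripts past both cutoffs; in each list the highest and lowest member of at least 1 CPM and up to 4 further members with the largest absolute fold change; and genes the study itself names. Cell type markers are named beside these. The members and lists were chosen with earlier results of these data known. Some transcripts that these rules name are not reported here. Positions are from GENCODE release 44 on GRCh38, and promoters are from RefSeq on GRCh38.p14.

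Alternatives were RLE factors, no factors, edgeR's filterByExpr, a prior count of 2, other fold cutoffs, days 0 and 8 alone, a replicate block, DESeq2 1.42.0 and fits that lacked 1 of the 10 libraries at a time. Columns with sequencing batches or dates were not among the labels used here.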

Additional observations from a re-analysis of the deposited data

Results flagged for a closer look

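Of 290 groups of 5 libraries (145 transcripts named in the text, on day 0 and day 8), 15 had a library far from the other 4 by Dixon's criterion (gap over range above 0.71), and chance alone flags about 1 in 20 groups.

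Day 0 replicate 3 was the lowest library for CD68 (103 CPM), CRELD2 (47.9 CPM), GPI (416 CPM), PSMB5 (44.5 CPM), SDC1 (270 CPM) and SPP1 (114 CPM). Day 0 replicate 1 was the highest for CHAC1 (17.4 CPM) and PFKFB4 (15.9 CPM), and day 0 replicate 2 was the highest for NPLOC4 (173 CPM).

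On day 8, replicate 4 was the lowest for ARRDC3 (87.8 CPM) and SC5D (14.8 CPM), and it held the only count of GDF15 (0.141 CPM). Replicate 5 was the highest for CRELD2 (42.1 CPM), replicate 3 for PSMD12 (38.3 CPM), and replicate 2 the lowest for WFS1 (13.2 CPM).

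Entries of other transcript biotypes were not part of the comparisons above. Of 47718 tested in 64 biotypes, 1832 passed both cutoffs, 557 higher and 1275 lower on day 8.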

How the results depend on the processing

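The count of transcripts past both cutoffs was 1472 (648 higher and 824 lower). Moving the fold cutoff up to a log2 fold of 2 left 479 (167 higher, 312 lower), and dropping the fold cutoff gave 6624 (3282 higher, 3342 lower). With edgeR's filterByExpr, 12301 transcripts were tested and 545 were lower; the higher count was 561. Leaving out 1 library at a time gave totals of 1369 to 1459, with 629 to 671 higher and 738 to 819 lower. With RLE factors the total was 1479, with no factors 1466, with days 0 and 8 alone 1426, with a prior count of 2 1281 and with DESeq2 1363.

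The main fit did not pair the samples by replicate number. Same-numbered deviations correlated at 0.045, 0.067, -0.016, -0.024 and 0.074, and the best match was the own number for replicates 1, 2 and 5 alone. Correlations this weak cannot show whether libraries of the same number came from the same subculture. The fit with a replicate block gave 1385 (618 higher, 767 lower).

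Among named transcripts no setting turned a direction that had been called; 56 values lost the call and 6 gained it. The count of higher ribosomal protein genes ranged from 3 to 14, the latter with no factors. The 3 lower members of the hypoxia list became 1 with no factors, with days 0 and 8 alone and without any 1 of 5 libraries. Depth limits the transcripts of few counts, and levels under 1 CPM rest on a handful of reads.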

Other observations

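Among the transcript biotypes outside the comparisons, retained introns held the most calls, 739 of 8883 (8.32%), with 164 higher and 575 lower on day 8. Processed transcripts had 367 calls (3.63%), transcripts marked for nonsense-mediated decay 205 (3.24%), antisense entries 167 (3.58%) and lincRNA entries 157 (2.8%). Over all 64 of these biotypes 1832 of 47718 entries were called. The share among protein-coding transcripts, in their own fit, was 8.18%, near that of the retained introns. The processed transcript entry of MDM2 fell by 4.03 on the log2 scale, from 62.7 ± 8.08 to 3.87 ± 1.04 CPM (SD, n = 5), beside the fall of its protein-coding entry. DBET, a noncoding transcript of the repeat array that holds DUX4, fell from 36.1 ± 5.79 to 2.38 ± 0.89 CPM (log2 fold change -3.93). AC079466.1, a lincRNA, rose from 345 ± 27.5 to 1633 ± 333 CPM (log2 fold change 2.24). Reads shared between biotypes of 1 gene were divided by the estimate of the quantifier, so these entries are not independent of the protein-coding ones.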
